A study of Mus musculus with 2 samples.

Results

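Gzma, Gzmb, Prf1, Nkg7, Ifng and Srgn are genes of lymphocyte killing and of the cytokine interferon gamma. They were taken by name, as 6 of the 17238 genes in a deposited table of counts, and were read in all cells of that table and in cells grouped by 5 marker genes. A cell counted as positive for Ncr1, Klrd1, Cd3e, Ly6c2 or Gata3 when it held at least 1 unique molecular identifier (UMI, 1 captured RNA molecule) of that marker, so the groups overlap. The cells came from a study of innate lymphoid cells (ILCs) of the gut, lymphocytes without antigen receptors that share the interleukin 7 receptor, which was used to sort them. There were 2 libraries of droplet-based single-cell RNA sequencing, small intestine and colon having 1 each, from C57BL/6 mice aged 8 weeks. Both carry the word Fed in their labels, the labels name no other treatment or allele, and each library was made from a pool of 8 mice, whose cells cannot be told apart.

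Killer lymphocytes carry granules in which granzymes, a family of serine proteases (Gzma, Gzmb), are stored on serglycin, a proteoglycan whose core protein is encoded by Srgn. On contact with a target cell the granules are released, perforin (Prf1) forms pores in the target membrane and granzymes enter through them, while Nkg7 encodes a granule membrane protein that takes part in this release. Interferon gamma (Ifng) is secreted, activates macrophages, and is the hallmark product of natural killer (NK) cells, ILC1 and type 1 T cells. In the gut, T cells within the epithelium are known for their stored granzymes. Of the markers, Ncr1 encodes NKp46, a receptor of NK cells, ILC1 and some ILC3, and Klrd1 encodes CD94, the partner chain of NKG2 receptors. Cd3e encodes a chain of the T cell receptor complex, Ly6c2 a surface antigen of several myeloid and lymphoid cells, and Gata3 the transcription factor that defines ILC2 and is also used by T cells.

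In the mm10 build, with the GENCODE vM21 annotation and positions counted from 1, Gzma is at chr13:113093825-113100981 on the minus strand and Gzmb at chr14:56258838-56262260 on the minus strand. Prf1 is at chr10:61297833-61304680 and Ifng at chr10:118441046-118445892, both on the plus strand, with Srgn at chr10:62493833-62527451 on the minus strand. Nkg7 is at chr7:43437073-43438249 on the plus strand. The 250 bases before the RefSeq start site (GRCm38.p6) are shown for the 4 genes whose levels differed most between marker groups. Capitals mark TGTGGT, the core motif of Runx factors, or AGGTGT, the core motif of T-box factors such as Tbx21, on either strand, so that a match on the other strand reads ACCACA or ACACCT.
Gzma, chr13:113100982-113101231, minus strand: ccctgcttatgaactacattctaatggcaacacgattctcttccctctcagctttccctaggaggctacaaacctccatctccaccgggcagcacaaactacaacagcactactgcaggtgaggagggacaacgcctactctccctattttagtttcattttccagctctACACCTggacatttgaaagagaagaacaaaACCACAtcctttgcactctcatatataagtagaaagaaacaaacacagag
Gzmb, chr14:56262335-56262584, minus strand: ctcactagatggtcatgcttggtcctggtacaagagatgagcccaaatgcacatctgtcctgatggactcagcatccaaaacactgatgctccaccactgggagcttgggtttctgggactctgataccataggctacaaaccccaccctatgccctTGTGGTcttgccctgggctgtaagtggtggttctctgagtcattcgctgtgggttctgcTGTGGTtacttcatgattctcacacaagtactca
Prf1, chr10:61297586-61297835, plus strand: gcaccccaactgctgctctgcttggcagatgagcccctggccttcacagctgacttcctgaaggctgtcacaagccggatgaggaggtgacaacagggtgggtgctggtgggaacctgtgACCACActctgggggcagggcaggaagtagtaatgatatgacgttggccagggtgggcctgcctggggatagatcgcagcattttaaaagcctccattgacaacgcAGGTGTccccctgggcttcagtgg
Ifng, chr10:118440796-118441045, plus strand: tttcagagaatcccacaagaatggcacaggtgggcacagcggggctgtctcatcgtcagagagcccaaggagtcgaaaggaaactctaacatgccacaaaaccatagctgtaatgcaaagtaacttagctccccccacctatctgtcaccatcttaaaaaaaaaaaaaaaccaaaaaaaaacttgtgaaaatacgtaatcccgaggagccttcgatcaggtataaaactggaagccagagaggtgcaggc
The window of Gzma held 1 match to the Runx motif and 1 to the T-box motif, and so did that of Prf1. The window of Gzmb held 2 matches to the Runx motif and 0 to the T-box motif, and the window of Ifng held 0 of either. Of 32851 windows of this length before RefSeq start sites, 14.0% held the Runx motif and 11.8% the T-box motif. The motifs were chosen with the sequences in view, and a match describes these letters only. The RefSeq start of Gzmb lies upstream of the GENCODE start, and the last bases of the Prf1 window are exonic in GENCODE.

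The table held 5490 cells of the small intestine with a median of 2579 UMIs and 7549 cells of the colon with a median of 2600 UMIs, out of 19745585 and 25548284 UMIs in the whole libraries. A total of 60 cell barcodes occurred in both libraries, against 56.2 expected by chance. The sorting marker Il7r had a UMI in 83.7% of small intestine cells and 67.5% of colon cells. Although the sort was for ILCs, 429 and 1384 cells held Cd3e. Ncr1 was seen in 1605 and 665 cells, Klrd1 in 172 and 482, Ly6c2 in 15 and 81, and Gata3 in 1643 and 4218, while 2253 and 1784 cells held none of the 5 markers. Levels are CPM, a gene's UMIs per 1000000 UMIs of all genes in the cells named, with 95% intervals in parentheses (exact Poisson intervals for levels, conditional binomial ones for ratios). As each tissue had 1 library, the tissues could not be tested against each other, every interval covers counting error only, and differences in the number of cells between tissues enter each level over all cells. The median of 11962 genes with at least 20 UMIs had a log2 ratio of 0.20 (small intestine over colon), and ratios between tissues are read against it.

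Over all cells, Gzma, which encodes granzyme A, stood apart from the other 5 genes. It had 978 UMIs in the small intestine, or 64.9 CPM (60.9 to 69.0), and 21 UMIs in the colon, or 0.940 CPM (0.582 to 1.44), a ratio of 69.0 (44.9 to 112). Gzmb, the gene of granzyme B, was at 87.6 CPM against 58.6 CPM in the colon, a ratio of 1.49 (1.38 to 1.61). Ifng was at 53.2 and 34.3 CPM, a ratio of 1.55 (1.40 to 1.71). Both genes were higher in the small intestine library. Prf1 was at 22.7 and 17.8 CPM, a ratio of 1.28 (1.10 to 1.48). Nkg7 was at 317 and 301 CPM, a ratio of 1.05 (1.02 to 1.09), and Srgn at 1163 and 1233 CPM, a ratio of 0.944 (0.926 to 0.962). Median-ratio scaling divides by the median ratio of genes with at least 20 UMIs on each side of a comparison. Under it the ratios were 59.4 for Gzma, 1.29 for Gzmb, 1.33 for Ifng, 1.10 for Prf1, 0.91 for Nkg7 and 0.81 for Srgn, so the direction of Nkg7 turned with the scaling. In all, 1 of the 6 genes differed at least 2-fold in favour of the small intestine and 0 in favour of the colon, against 8.92% and 5.42% of all 11962 genes.

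**Figure D1:**
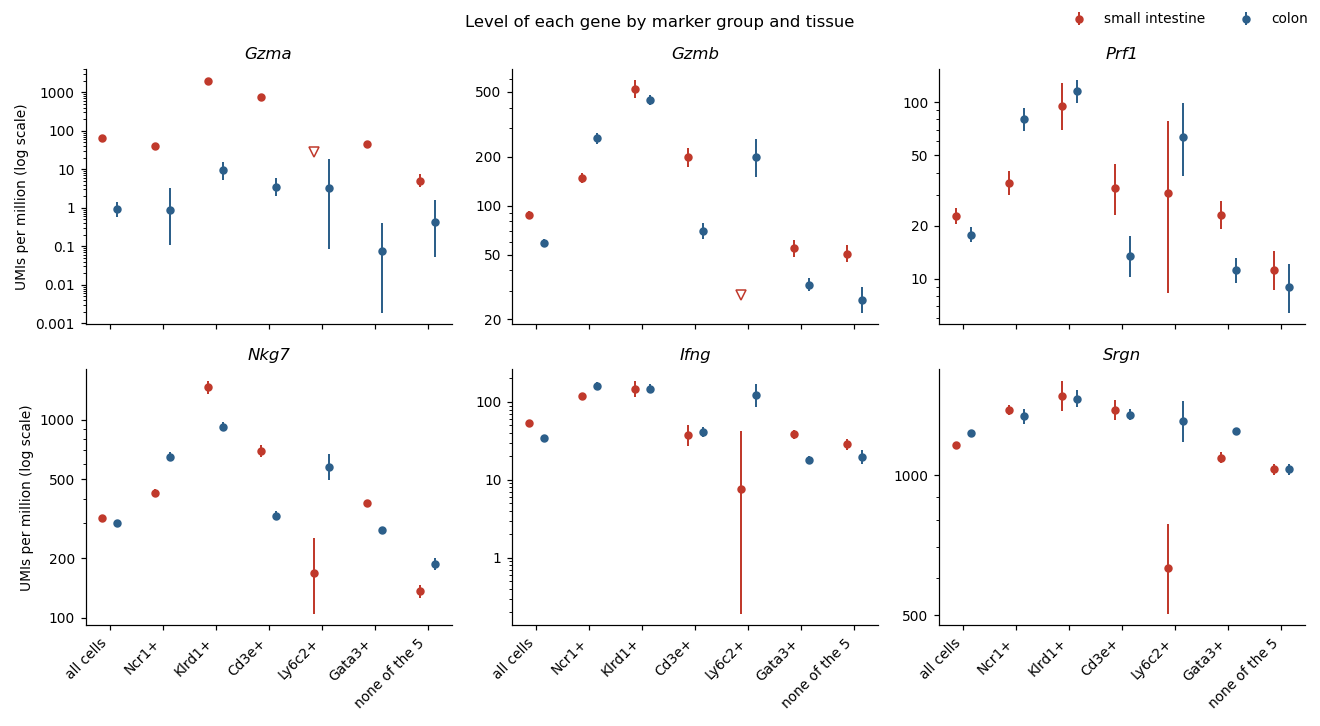
Level of each gene in CPM (log axis) in all cells, in each marker-positive group and in cells with none of the 5 markers, small intestine in red and colon in blue. Bars are exact 95% Poisson intervals of counting error, and an open triangle marks 0 UMIs, drawn at the upper limit that 0 allows. Klrd1+ cells had the highest Gzmb level of the groups in each library (519 and 446 CPM), and Gzma was above 30 CPM in the small intestine in each marker group except Ly6c2+.

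Gzma RNA was held by very few cells. In the small intestine, 89 of 5490 cells had a Gzma UMI and 57 of these 89 had exactly 1, while 6 cells held 50% of all Gzma UMIs. A total of 17 cells with at least 10 UMIs each (a limit chosen after the values were seen) held 873 of the 978 UMIs, or 89.3%. Their Gzma counts ran from 11 to 111 with a median of 52, at depths of 1558 to 5139 UMIs per cell, close to the other cells. The colon had 8 cells with a Gzma UMI, of which 1 held 13 UMIs and the others 1 or 2. Because the UMIs of these cells are not independent, the counting intervals of Gzma are too narrow. Gzmb and Ifng were clustered too, to a lesser degree. The 10 richest cells held 18.3% of small intestine and 18.5% of colon Gzmb UMIs, and 16.0% and 15.9% of Ifng UMIs. Intervals of these 2 genes are therefore also too narrow. Without the cells with at least 10 Gzma UMIs the ratio between tissues was 19.5, and without Cd3e+ cells it was 22.1. Leaving out the 10 cells of each library with the most Gzma cannot show how the ratio depends on such cells. Only 8 colon cells held Gzma, so this had to leave the colon with 0 UMIs. The resulting 124-fold is set by the floor of 3 counts and is not read as a larger difference.

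The Gzma-rich cells carried T cell and CD94 transcripts. All 17 held Klrd1 (86 UMIs in all), 16 held Cd3e, 13 held Trdc, the constant gene of the delta chain of gamma-delta T cell receptors, 10 held Trac, that of the alpha chain of alpha-beta receptors, and 8 held Cd8a, while Cd8b1, Cd4 and Eomes had 0 UMIs. Trdc was at 1392 CPM in the 17 cells and 1482 CPM in the other 413 Cd3e+ cells, and Trac at 364 and 107 CPM. The chemokine gene Ccl5 had 1758 UMIs in the 17 cells. Gzmb had 137 UMIs in 16 of them, Nkg7 133 UMIs in 17 and Srgn 70 UMIs in 17, while Prf1 had 2 UMIs in 2 cells and Ifng 1 UMI in 1 cell. Gzmb was at 2934 CPM in the 17 cells and 84.0 CPM in the other Cd3e+ cells. For Prf1 the levels were 42.8 and 32.2 CPM and for Ifng 21.4 and 39.3 CPM, and counts of 1 or 2 UMIs cannot show a difference. Itgae, which encodes the epithelial-binding integrin CD103, had a UMI in 11 of the 17 cells and in 31 of the other 413 Cd3e+ cells. Il7r, the sorting marker, had a UMI in 4 of the 17 and in 316 of the 413. The colon cell with 13 Gzma UMIs also held 8 Klrd1 UMIs, 3 Cd3e UMIs and 315 Ccl5 UMIs. A doublet score (Scrublet) placed 2 of the 17 cells among the 241 highest-scoring small intestine cells, which are 4.39% of the cells of that library. Of its 50 cells with both Cd3e and Klrd1, 6 were among them.

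**Figure D2:**
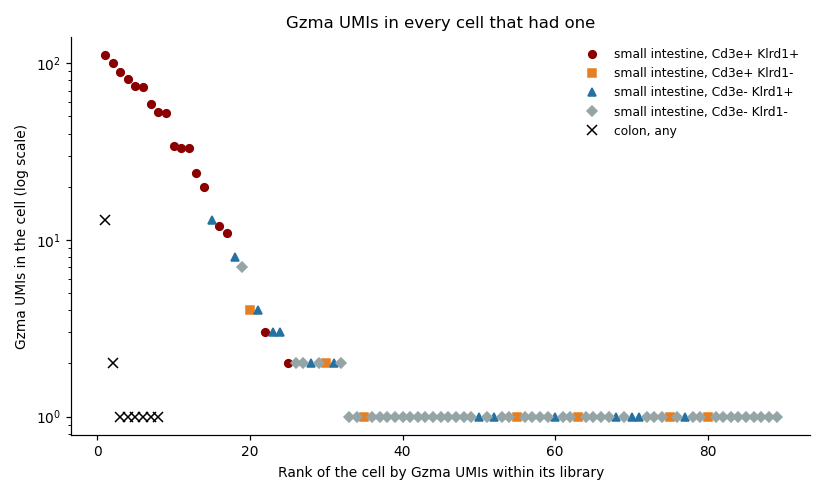
Gzma UMIs per cell (log axis) for every cell with at least 1, by whether the cell also held Cd3e and Klrd1, in each library. The 18 small intestine cells with both markers hold 865 UMIs, and the 50 cells with neither hold 60, with a highest value of 7.

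Split by marker, Gzma followed the overlap of Cd3e and Klrd1. Cells with both markers had 6153 CPM of Gzma among 50 small intestine cells and 39.2 CPM among 94 colon cells. Cd3e+ cells without Klrd1 had 10.7 and 0.515 CPM, so within Cd3e+ cells Klrd1 marked nearly all of the Gzma. Klrd1+ cells without Cd3e had 128 CPM (42 UMIs) in the small intestine library and 1.61 CPM (2 UMIs) in the colon library. Klrd1+ cells as a whole were at 1931 and 9.55 CPM, a ratio of 202 (122 to 363) that was 79.0 without Cd3e+ cells. Cd3e+ cells as a whole were at 752 and 3.56 CPM, a ratio of 212 (128 to 380). In small intestine Ncr1+ cells Gzma was lower than in Ncr1- cells, at 0.525 times the level (0.446 to 0.616), but among cells without Cd3e it was 2.01 times as high (1.34 to 3.02). Between tissues, Ncr1+ cells were at 40.0 CPM and 0.897 CPM, the latter from 2 UMIs, and their ratio of 44.7 was 11.2 without Cd3e+ cells and 3.52 after each cell was thinned to 1000 UMIs. For ratios after thinning, here and below, marker groups were called again from the thinned counts. Cells that lost their marker UMI thus moved to the negative side.

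Low Gzma counts in other cells overlap with free RNA, the transcripts that leak into every droplet. Barcodes with 10 to 50 UMIs, which hold no cell, had 46.8 CPM of Gzma in the small intestine library and 0 UMIs in the colon library. Free RNA made up an estimated 5.36% of the UMIs of small intestine cells, which gives 2.50 CPM of Gzma in each group. Cells whose only marker was Gata3 had 15 Gzma UMIs in 13 of 1190 small intestine cells (4.16 CPM) and 0 UMIs in 3553 colon cells, which allows a share of up to 0.0844% of cells with a UMI. Cells with none of the 5 markers had 28 UMIs (5.09 CPM) in the small intestine. Both small intestine levels are low but above the estimated 2.50 CPM. What part of them is free RNA was not tested, and they are not read as expression.

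Gzmb was spread over more cells than Gzma and was highest in Klrd1+ cells of both libraries. It had a UMI in 431 small intestine cells and 378 colon cells, and 60 and 50 cells held 50% of its UMIs. Klrd1+ cells had 519 CPM (456 to 589) in the small intestine library and 446 CPM (413 to 480.0) in the colon library, against 73.7 and 29.3 CPM in Klrd1- cells. The ratio of Klrd1+ to Klrd1- cells was 7.05 for the small intestine and 15.2 for the colon. Without Cd3e+ cells the ratio was 3.99 for the small intestine, smaller than with them, and 21.3 for the colon, larger than with them. Without the cells with at least 10 Gzma UMIs it was 3.43 for the small intestine. Ncr1+ cells had 147 CPM among small intestine cells and 258 CPM among colon cells, which is 2.45 and 7.08 times the level of Ncr1- cells. Cd3e+ cells had 198 and 69.7 CPM, a ratio of 2.85 (2.39 to 3.39) in the other direction that was 5.17 after thinning. That ratio rests on the Gzma-rich cells, which held 137 of the 231 Gzmb UMIs of small intestine Cd3e+ cells, and without the cells with at least 10 Gzma UMIs it was 1.20. The direction in Ncr1+ cells depended on their Klrd1+ cells. Of the Ncr1+ cells 5.61% held Klrd1 for the small intestine and 32.6% for the colon, and without Klrd1+ cells the ratio was 1.22 in place of 0.571. Ncr1+ cells with neither Cd3e nor Klrd1 had 136 CPM (125 to 147) in small intestine and 105 CPM (88.8 to 124) in colon cells.

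Prf1, the pore-forming partner of the granzymes, was sparse, with at most 3 UMIs per small intestine cell and at most 8 per colon cell. It was at 95.8 CPM (69.9 to 128) in small intestine Klrd1+ cells and 115 CPM (99.1 to 133) in colon Klrd1+ cells, 4.71 and 11.1 times the level in Klrd1- cells. The intervals of the 2 tissues overlap. Ncr1+ cells had 35.0 and 80.2 CPM, a ratio of 0.436 (0.351 to 0.542), while Cd3e+ cells had 32.6 and 13.5 CPM, a ratio of 2.42 (1.56 to 3.70). Prf1 was thus lower in the small intestine in Ncr1+ cells and higher there in Cd3e+ cells. Without Klrd1+ cells the ratio of Ncr1+ cells was 0.702, and after thinning that of Cd3e+ cells was 1.84. Among Cd3e+ cells the Klrd1+ cells had 49.8 CPM against 30.3 CPM in the small intestine, from 7 and 31 UMIs, and the interval of that ratio (0.611 to 3.81) spans 1. In that comparison Gzmb was 13.0 times as high and Gzma 573 times, and without the cells with at least 10 Gzma UMIs the ratio of Gzmb was 1.41.

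Nkg7, of the granule membrane, was seen in far more cells, 1845 in the small intestine library and 2828 in the colon library. It was highest in Klrd1+ cells, at 1454 CPM (1347 to 1567) for the small intestine and 921 CPM (874 to 970.1) for the colon, and was still at 335 and 249 CPM in cells whose only marker was Gata3. Free RNA accounts for an estimated 9.75 and 16.7 CPM of Nkg7, so its level in Gata3+ cells was well above that background. Ncr1+ cells had 429 and 651 CPM, a ratio of 0.659, and Cd3e+ cells 695 and 328 CPM, a ratio of 2.12 (1.94 to 2.31). Without Klrd1+ cells these 2 ratios were 0.875 and 1.87.

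Srgn, which encodes the granule matrix proteoglycan and is used by many blood cells, was detected in 86.6% of small intestine and 89.5% of colon cells and differed little between the marker groups. Its levels lay between 1031 CPM in cells with no marker and 1482 CPM in Klrd1+ cells of the small intestine, and between 1031 and 1463 CPM in the same groups of the colon, leaving out Ly6c2+ cells. Klrd1+ cells had 1.29 times the level of Klrd1- cells for the small intestine and 1.20 times for the colon. No marker except Ly6c2 in the small intestine, which rests on 15 cells, moved Srgn by more than 1.5-fold. Its ratio between tissues was 1.03 in Ncr1+ cells, 1.01 in Klrd1+ cells, 1.02 in Cd3e+ cells and 0.875 in Gata3+ cells.

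Ifng, the only secreted cytokine of the 6 genes, was higher with Ncr1 and also with Klrd1. Ncr1+ cells had 118 CPM (108 to 128) among small intestine cells and 162 CPM (146 to 179.9) among colon cells, 5.01 (4.30 to 5.85) and 8.05 times the level in Ncr1- cells. Its level was higher in cells with more Ncr1 UMIs in the colon, at 20.1, 127, 183 and 237 CPM for 0, 1, 2 and 3 or more. In the small intestine the values were 23.5, 83.9, 157 and 137 CPM. Klrd1+ cells had 147 and 148 CPM, a ratio of 0.994 that was 0.496 after thinning. An Ifng UMI was held by 21.3% of small intestine and 29.1% of colon Klrd1+ cells without Cd3e. Among Ncr1+ cells with neither Cd3e nor Klrd1 the shares were 13.2% and 21.7%. Cd3e+ cells had 37.8 and 41.3 CPM, which is 0.694 times (0.5 to 0.941) the level of Cd3e- cells for the small intestine and 1.26 times (1.06 to 1.49) for the colon. In cells with both Cd3e and Klrd1, Ifng had 2 UMIs among small intestine cells (14.2 CPM) and 21 among colon cells (63.3 CPM).

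Taking the markers in turn, more of the 6 genes were at least 2-fold higher in cells positive for Klrd1 than for any other marker. In both libraries 5 of 6 were higher in Klrd1+ cells, all but Srgn, against 5.89% of 10837 small intestine genes and 4.80% of 11221 colon genes. After thinning, the small intestine ratio of Ifng was 1.93, which leaves 4 of 6. The colon call of Gzma rests on 1 cell with 13 UMIs. Without that cell the ratio was 4.42, from fewer than the 20 UMIs needed to be counted. Ncr1+ cells had 3 of 6 higher in the small intestine (Gzmb, Prf1 and Ifng), against 1.89% of genes, and 4 of 6 in the colon, with Nkg7 added, against 4.37%. Without Klrd1+ cells the ratio of Prf1 was 1.91 in the small intestine and that of Nkg7 1.73 in the colon, and after thinning that of small intestine Gzmb was 1.73. Cd3e+ cells had 3 of 6 higher in the small intestine (Gzma, Gzmb and Nkg7), against 3.92%, and 1 of 6 in the colon (Gzma, from 15 UMIs), against 3.78%. That colon count was 0 without the 10 cells richest in a gene, which leaves out all colon Gzma. Without the cells with at least 10 Gzma UMIs the colon ratio of Gzma was 1.43, and Gzmb was 1.07 times as high in small intestine Cd3e+ cells. Among Cd3e+ cells, those with Klrd1 had 3 of 6 higher in the small intestine (Gzma, Gzmb and Nkg7), against 6.43% of genes, where the Gzmb call again rests on the Gzma-rich cells. In the colon 3 of the 5 genes with at least 20 UMIs were higher (Gzmb, Prf1 and Nkg7), against 4.57%, although Prf1 was 1.23 times as high without the 10 cells with the most Prf1.

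Within Klrd1+ cells, the number of Klrd1 UMIs went with the level of the granule genes in the colon. In cells with 0, 1, 2 and 3 or more Klrd1 UMIs, Gzmb was at 29.3, 281, 534 and 623 CPM, and Prf1 at 10.4, 71.5, 107 and 179 CPM. Nkg7 was at 254, 742, 983 and 1131 CPM in the same order. The last step rests on 183 cells, and median depth in the 4 classes lay between 2413 and 2614 UMIs, with no order that follows Klrd1. In the small intestine Gzma was at 4.86, 440.2, 509 and 4732 CPM, from 5318, 91, 23 and 58 cells. Nkg7 there was at 281, 1026, 1781 and 1956 CPM. Ifng did not keep such an order, at 50.2, 174, 135 and 111 CPM for the small intestine and 25.8, 108, 224 and 162 CPM for the colon.

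**Figure D3:**
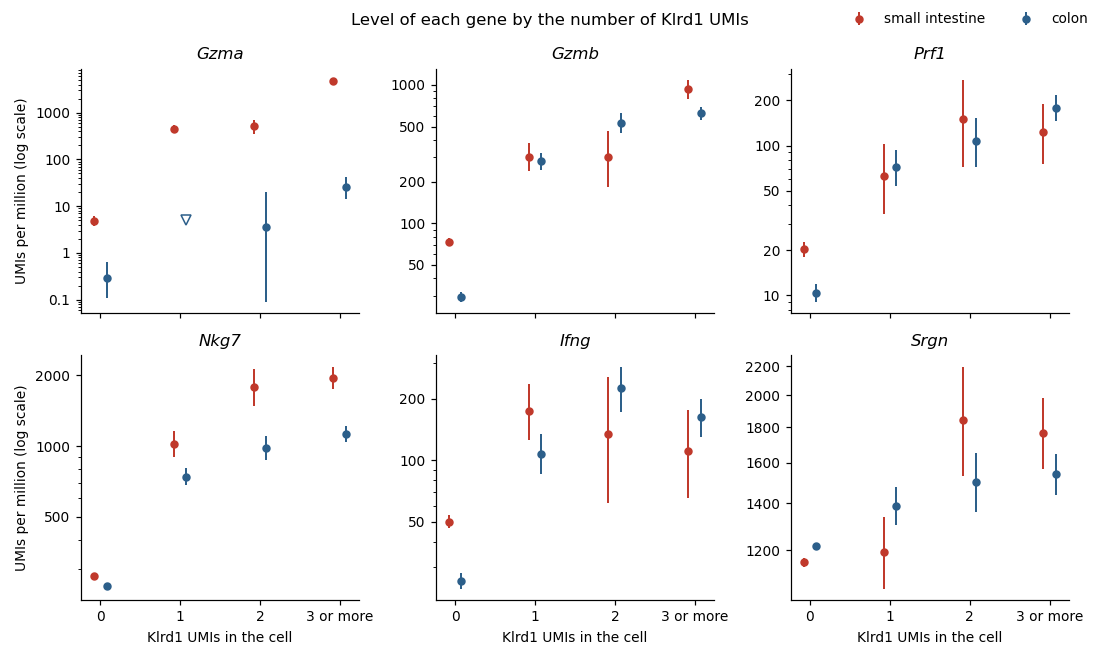
Level of the members in CPM (log axis) against the number of Klrd1 UMIs in a cell (0, 1, 2, 3 or more), small intestine in red and colon in blue, with exact 95% Poisson intervals and an open triangle at the upper limit where there were 0 UMIs. Colon Gzmb goes from 29.3 to 623 CPM over the 4 classes, and small intestine Gzma from 4.86 to 4732 CPM.

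The cells that supplied each transcript differed between tissues. With each cell put in 1 class, by the first that holds of Cd3e+, Klrd1+, Ncr1+, Ly6c2+, Gata3+ and none, Cd3e+ cells held 89.6% of small intestine Gzma UMIs and 7.72% of the UMIs of all genes. Ncr1+ cells held 60.1% of Ifng, 45.2% of Gzmb and 39.5% of Prf1 in the small intestine, against 29.2% of all UMIs. In the colon Klrd1+ cells held 5.55% of all UMIs but 47.3% of Gzmb and 43.3% of Prf1. Colon Ifng was divided among Klrd1+ (27.5%), Ncr1+ (27.4%) and Cd3e+ cells (22.7%). The main source of Gzmb and Prf1 was therefore Ncr1+ cells without Klrd1 for the small intestine and Klrd1+ cells for the colon. Gata3+ cells held 48.8% of colon Srgn UMIs, near their 48.4% of all colon UMIs, and 40.0% of colon Nkg7. Colon Klrd1+ cells held 17.4% of Nkg7, above their share of all UMIs. Small intestine cells with none of the 5 markers held 15.7% of Nkg7 and 36.5% of all UMIs.

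**Figure D4:**
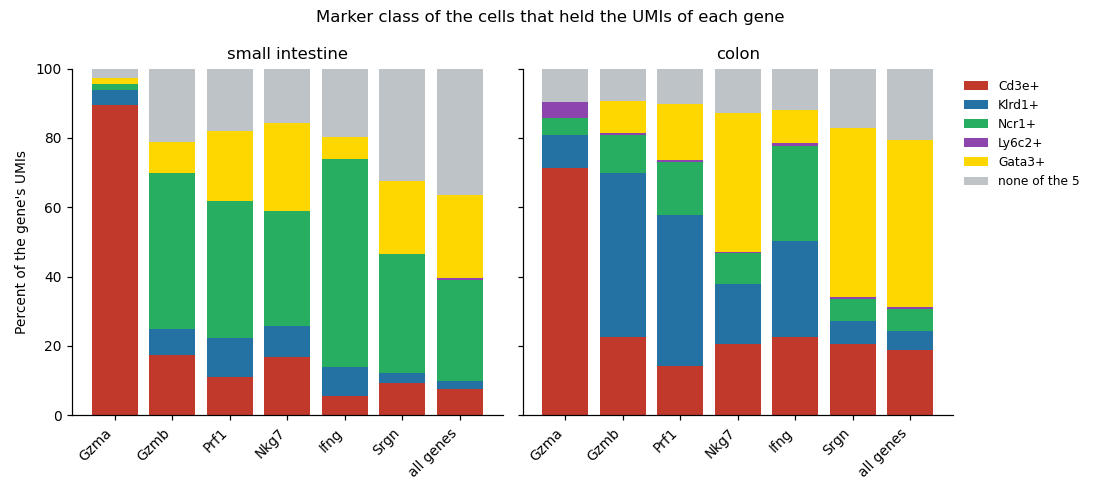
Share of each gene's UMIs (percent, stacked to 100) held by each of the exclusive marker classes in the 2 libraries, beside the share of the UMIs of all genes. Cd3e+ cells hold 89.6% of Gzma in the small intestine, and Klrd1+ cells without Cd3e hold 47.3% of Gzmb in the colon.

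The next comparison asks whether a given marker group carried the same levels in the 2 tissues. Among Cd3e+ cells, Gzma, Gzmb, Prf1 and Nkg7 (4 of 6) exceeded 2-fold in favour of the small intestine and 0 in favour of the colon, against 5.12% and 4.27% of 9152 genes. That count was 2 without the cells with at least 10 Gzma UMIs and without Klrd1+ cells, where Gzmb (1.20 and 1.48) and Nkg7 (1.85 and 1.87) had ratios below 2. It was 3 under median-ratio scaling, with Nkg7 at 1.86, and after thinning, with Prf1 at 1.84. Among Klrd1+ cells Gzma alone (1 of 6) did so and 0 favoured the colon, against 7.18% and 4.88% of 7094 genes. Gzmb in Klrd1+ cells had a ratio of 1.17, which turned to 0.584 without Cd3e+ cells. Among Ncr1+ cells 1 gene was past 2-fold for the small intestine (Gzma) and 1 for the colon (Prf1), against 9.26% and 4.13% of 9685 genes, and the colon count ranged from 0 to 2 over the alternatives. Gzmb in Ncr1+ cells had a ratio of 0.571 (0.51 to 0.638) and Ifng of 0.726 (0.635 to 0.831), so 4 of the 6 genes, with Prf1 and Nkg7, were lower in the small intestine in this group. Without Klrd1+ cells the ratios of Prf1, Nkg7 and Ifng were 0.702, 0.875 and 0.731, and that of Gzmb turned to 1.22.

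Ncr1 marks several cell types, and Ncr1+ Cd3e- cells were split by Tbx21, which encodes the type 1 transcription factor T-bet. A Tbx21 UMI was found in 239 of these cells of the small intestine and 101 of the colon, against 1331 and 524 without one. Tbx21 RNA is missed in some cells at this depth, so the Tbx21- set holds cells of both kinds, and Klrd1+ cells, a larger share in the colon, were kept in both sets. On both sides of the split Gzmb, Prf1, Nkg7 and Ifng were lower in the small intestine, with intervals of the ratio below 1. In Tbx21+ cells Gzmb was at 157 and 340 CPM, a ratio of 0.463 (0.354 to 0.605), and Prf1 at 63.1 and 138 CPM, a ratio of 0.457 (0.297 to 0.701). In Tbx21- cells Gzmb was at 144 and 238 CPM, a ratio of 0.606 (0.533 to 0.691), and Prf1 at 29.9 and 72.7 CPM, a ratio of 0.411 (0.316 to 0.534).

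Within each tissue Prf1 and Nkg7 were higher in Tbx21+ than in Tbx21- cells. In the small intestine Prf1 was 2.11 times (1.47 to 2.99) and Nkg7 1.94 times (1.75 to 2.14) as high, and 1 of 6 genes (Prf1) was past 2-fold, against 1.94% of 9021 genes. In the colon these ratios were 1.90 (1.32 to 2.69) and 1.67 (1.47 to 1.89), and 0 of 6 genes were past 2-fold, against 2.46% of 7021 genes. Gzmb differed less, with a ratio of 1.09 (0.886 to 1.33) in the small intestine and 1.43 (1.15 to 1.77) in the colon. After thinning, which leaves fewer cells with a marker UMI, the ratios of Gzmb were 0.426 and 0.235 and the colon ratio of Nkg7 was 0.884. Without Klrd1+ cells the colon ratio of Prf1 was 1.19, so most of that difference went with Klrd1+ cells, and the small intestine ratio of Gzmb was 0.705. The small intestine ratio of Prf1 was at least 2.11 in each alternative. No Ncr1+ cell of either library held a UMI of Eomes, the T-box gene that marks circulating NK cells, which had 4 and 14 UMIs over all cells.

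**Figure D5:**
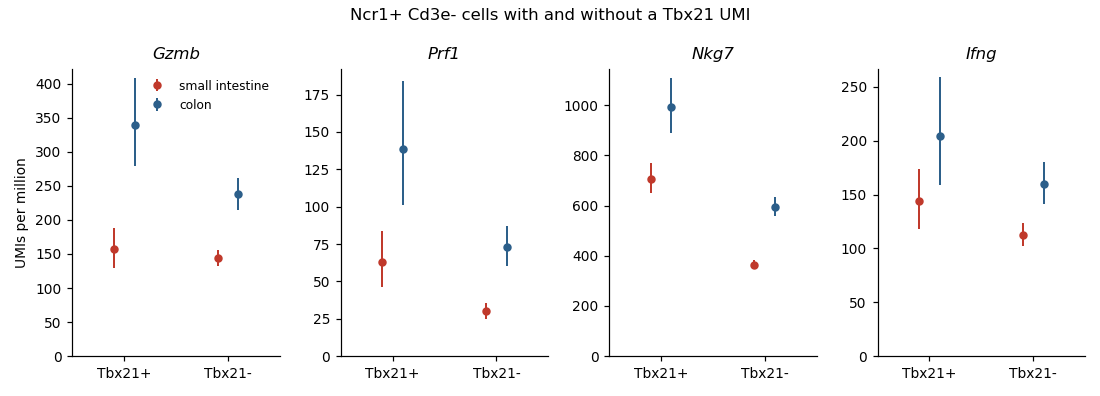
Level of Gzmb, Prf1, Nkg7 and Ifng in CPM (linear axis from 0) in Ncr1+ Cd3e- cells with and without a Tbx21 UMI, small intestine in red and colon in blue, with exact 95% Poisson intervals. The colon lies above the small intestine on both sides of the split, as for Prf1 at 63.1 and 138 CPM in Tbx21+ cells and 29.9 and 72.7 CPM in Tbx21- cells of the small intestine and colon.

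Gata3+ cells of the colon had the lowest Gzmb, Prf1 and Ifng of the 5 marker groups, although for Prf1 their interval (9.46 to 13.1 CPM) overlaps that of Cd3e+ cells (10.2 to 17.5 CPM). Gzmb was at 54.5 CPM in small intestine Gata3+ cells and 32.6 CPM in colon Gata3+ cells, Prf1 at 23.1 and 11.2 CPM, and Ifng at 38.3 and 18.1 CPM. In the colon 4 of 6 genes (Gzma, Gzmb, Prf1 and Ifng) were at least 2-fold higher in Gata3- cells, against 6.40% of genes. The Gzma call rests on 20 UMIs in Gata3- cells, 13 of them in 1 cell. After thinning, colon Gata3+ cells held 0 Gzma UMIs, and the ratio of Gata3+ to Gata3- cells was 0.849 against the floor. For Prf1 that ratio was 0.532 without Klrd1+ cells, which also ends its call. In the small intestine 0 of 6 were, against 3.85%, but with 2 Gata3 UMIs required 3 of 6 were, as the ratio of Gata3+ to Gata3- cells was then 0.0541 for Gzma, 0.199 for Gzmb and 0.223 for Ifng. Between tissues, 3 of 6 genes (Gzma, Prf1 and Ifng) were at least 2-fold higher in small intestine Gata3+ cells and 0 in colon ones, against 7.42% and 4.40% of 10966 genes. Under median-ratio scaling, or without the 10 cells with the most UMIs of a gene, that count was 1. Prf1 had a ratio of 2.07 (1.61 to 2.65) and Ifng of 2.12 (1.75 to 2.57). With 2 Gata3 UMIs required, the ratio of Ifng was 1.07 and that of Gzmb was 0.993 in place of 1.67. Gzma had 234 UMIs in small intestine and 1 UMI in colon Gata3+ cells, and 223 of the 234 were in cells with exactly 1 Gata3 UMI.

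Ly6c2+ cells were few, and in the small intestine their makeup was different. The 15 small intestine cells had a median of 5909 UMIs and 0 UMIs of Gzma and of Gzmb, 4 of Prf1, 22 of Nkg7, 1 of Ifng and 83 of Srgn. The 81 colon cells had 1, 59, 19, 172, 37 and 390 UMIs of these genes. In the colon 4 of 6 genes were at least 2-fold higher in Ly6c2+ cells, against 7.39% of genes, Gzmb 3.49 times, Prf1 3.72 times, Ifng 3.75 times and Gzma from 1 UMI. The Prf1 ratio was 1.13 after thinning. With 2 Ly6c2 UMIs required, the colon ratios were 1.89 for Gzmb and 1.65 for Prf1, below 2-fold, while Nkg7 passed 2-fold. Of the 59 colon Gzmb UMIs, 40 were in cells with exactly 1 Ly6c2 UMI. Klrd1 was also held by 61.7% of the colon Ly6c2+ cells. Without Klrd1+ cells the ratio of Gzmb was larger, at 5.90, and that of Nkg7 was 1.19 in place of 1.94. Markers of B or plasma cells (5 genes, of which Ms4a1 was at 0) summed to 304231 CPM in Ly6c2+ cells of the small intestine and 84823 CPM in those of the colon, against 4900 and 1722 CPM in all cells. Their part in these values was not tested.

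The share of cells with a UMI depends on depth, so it was also taken after thinning each cell to 1000 UMIs. For these shares the marker groups were those called before thinning. Gzmb was then found in 16.3% of small intestine and 21.8% of colon Klrd1+ cells (27.3% and 30.5% before thinning). In cells whose only marker was Gata3 the shares were 2.18% and 0.535% (4.20% and 1.60%), at median depths of 2909 and 2737 UMIs against 2440 and 2535 in Klrd1+ cells. Prf1 was found in 11.0% and 10.8% of Klrd1+ cells after thinning, against 1.43% and 0.507% of the Gata3-only cells. Ifng was found in 7.73% and 13.5% of Ncr1+ cells, against 1.34% and 0.619%. Each of these genes was therefore detected above its share in Gata3-only cells in both tissues. Gzma after thinning was found in 16.3% of small intestine and 0.207% of colon Klrd1+ cells, the latter 1 cell.

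In the colon the killing genes were often found in the same cells. Among 6165 Cd3e- cells, 78 held both Gzmb and Prf1, where the product of the 2 shares gives 11.2 cells. For Gzmb with Ifng the counts were 75 and 13.4, and for Prf1 with Ifng 67 and 12.1. In the small intestine 35 cells held Gzmb and Prf1 against 19.9, and 63 held Gzmb and Ifng against 24.8. The excess for Gzmb with Prf1 was 6.94-fold in the colon, and 1.76-fold in the small intestine. Within Klrd1+ cells, Cd3e+ ones included, it was 1.68-fold (63 cells against 37.5) in the colon and 1.18-fold (11 against 9.29) in the small intestine. A larger share of Klrd1+ cells held each gene, which lowers the largest excess possible. These values therefore cannot show whether the excess depends on Klrd1. Among small intestine Cd3e+ cells, 17 held both Gzma and Gzmb against 3.15, and 0 held both Gzma and Ifng against 1.34. Cells of greater depth hold more of every gene, and these counts are a description.

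Other genes of the same machinery were read in 6 lists. In Klrd1+ against Klrd1- cells, all 4 chemokine genes were at least 2-fold higher in both libraries, with Ccl5 at 7407 against 67.8 CPM for the small intestine and 3927 against 114 CPM for the colon. Of the NK receptors and adaptors, 13 of 17 measured genes were at least 2-fold higher for the small intestine and 16 of 18 for the colon, with median log2 ratios of 2.21 and 2.49 against 0.00 and -0.01 over all genes. The granule machinery did not move as a list. Of its 19 genes, 2 were higher and 1 lower in the small intestine (median log2 ratio -0.02) and 4 higher and 1 lower in the colon (0.06), where 8.55% and 6.73% of all genes were at least 2-fold lower. Those higher were Cst7, which encodes cystatin F, an inhibitor of granule proteases (6.01-fold in the small intestine), and the cathepsin gene Ctsw (2.73-fold and 4.42-fold). Serpinb9, an inhibitor of granzyme B, was 5.29 times as high in the colon. Of 20 regulators and receptors tied to Ifng, 5 were higher and 1 lower for the small intestine, and 4 and 1 for the colon. Il12rb2, a chain of the interleukin 12 receptor, was 37.3 and 13.7 times as high and Tbx21 2.95 and 6.18 times.

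The same lists set the tissue contrasts of Ncr1+ cells beside those of Cd3e+ cells. In Ncr1+ cells 0 of 4 chemokine genes passed 2-fold for the small intestine and 2 for the colon, with Xcl1 at 419 and 1553 CPM and Ccl5 at 354 and 1256 CPM. Over all genes 9.26% and 4.13% passed in these directions. Of 17 NK receptors and adaptors, 1 was higher in the small intestine cells and 5 in the colon cells, led by Tyrobp, which encodes the adaptor DAP12, at 93.0 and 575 CPM. In Cd3e+ cells 3 of 4 chemokine genes were higher in the small intestine, with Ccl5 at 2324 and 729.8 CPM and Ccl4 at 413 and 66.6 CPM, where 5.12% of all genes passed for the small intestine and 4.27% for the colon. Of 15 NK receptors there, 2 were higher in the small intestine, Cd160 at 213 and 45.1 CPM and Klra7 at 16.3 and 7.82 CPM, and 4 in the colon, among them Klrk1, the gene of NKG2D, at 162 and 485 CPM. The granule machinery list had 0 and 1 genes past 2-fold in Ncr1+ cells and 1 and 0 in Cd3e+ cells, the latter Ctsc, the cathepsin that activates granzymes, at 87.6 and 38.6 CPM.

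The genes whose levels were most like each member were sought over 10 points, the 5 exclusive classes with at least 50 cells in both libraries, by Pearson's r of log2(CPM + 10) over 3644 genes. The points share libraries and depth, and r is a description. For Ifng the closest genes were Klrb1c (NK1.1, r = 0.984), Pglyrp1 (0.963), Hnrnpab (0.962), Tbx21 (0.958) and Rgs1 (0.949). For Prf1 they were Ppig (0.959), Mmp9 (0.944) and the NK receptor genes Klre1 (0.941) and Klrc2 (0.940), then Ube2a (0.930). Gzmb was closest to Cox8a (0.954), Tatdn2 (0.949), Epsti1 (0.941), Arrdc3 (0.940) and Pik3r1 (0.939). Gzma was closest to Mob1a (0.953), Mrpl52 (0.905), Mrpl15 (0.900), Tcf3 (0.894) and Smc4 (0.874), genes with no granule role. Nkg7 was closest to Rab8b (0.947), Cdv3 (0.923), Mfsd10 (0.920), Mxd4 (0.919) and Abcb1a (0.913). Srgn was closest to the actin and myosin genes Arpc5 (0.940), Myl6 (0.934) and Arpc1b (0.916), with Hcst (0.928) and Ywhah (0.911). With 1 CPM added in place of 10, only 2 of the 5 genes named for Prf1 stayed among its 5 closest. For Ifng and for Gzma 3 of 5 stayed, and for Gzmb, Nkg7 and Srgn 5 of 5. Those lost were Mmp9, Klre1 and Ube2a for Prf1, Pglyrp1 and Hnrnpab for Ifng, and Mrpl15 and Smc4 for Gzma. Among the members, r was 0.922 for Gzmb with Prf1, 0.881 for Prf1 with Ifng and 0.869 for Gzmb with Ifng, and Srgn, although its range was narrow, had r of 0.851 with Nkg7, 0.770 with Gzmb, 0.734 with Prf1 and 0.725 with Ifng. Gzma had r between 0.163 (Ifng) and 0.557 (Nkg7) with the others.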

How the data were processed

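The deposited files hold raw UMI counts per gene and barcode, made by the authors with Cell Ranger 3.0.2 and the mm10 build per the submitters' processing notes, and a table with the counts of those cells that the authors kept (how they were chosen is not given in the sources used here). No value of the table differed from the matrices. Each gene's UMIs in a group of cells were added up and divided by all UMIs of the group (Python 3.11.15, numpy 2.4.6, scipy 1.17.1, scanpy 1.11.5). With 1 library per tissue no test was made. Ratios needed at least 20 UMIs on both sides together to be counted, a difference was counted from 2-fold, and a side with 0 UMIs was set to a floor of 3 counts. The 6 genes and the gene lists were chosen with earlier results of these data known. From the lists, counts past 2-fold and the 2 to 4 genes with the largest change by the interval bound nearest to 1 are named, and for each member the 5 most alike genes. The automatic threshold of Scrublet marked 0 and 1 cells, so doublets were kept, and the 241 and 456 highest scores were left out as an alternative. The calculation of ratios and intervals was run on simulated Poisson counts with known fold changes. Such counts have no clustering of UMIs in cells, so that run cannot show whether the intervals are wide enough here. Alternatives were another scaling, cells called from the matrices, subtraction of free RNA, cells weighted equally, thinning, no Cd3e+ cells and 2 marker UMIs. Leaving out the 10 cells with the most UMIs of a gene, the cells with at least 10 Gzma UMIs or Klrd1+ cells, and the split of Cd3e+ cells by Klrd1, were chosen after seeing the data. A further split of Ncr1+ cells and 1 gene of the lists are not reported here.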

Additional observations from a re-analysis of the deposited data

Results flagged for a closer look

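In 6 cases a marker went with a member in opposite directions in the 2 libraries, with intervals of the ratio that lay on opposite sides of 1, and the difference between tissues was not tested. Prf1 in Cd3e+ against Cd3e- cells had a log2 ratio of 0.58 in small intestine cells and -0.47 in colon cells, and Ifng had -0.53 and 0.33. Without Klrd1+ cells the colon ratio of Prf1 was 1.24 in place of 0.720, so for Prf1 the opposite directions were not kept. Nkg7 in Ly6c2+ against Ly6c2- cells had -0.93 and 0.96, and Ifng -2.81 and 1.91, where the small intestine side rests on 15 cells rich in antibody transcripts. Nkg7 in Gata3+ against Gata3- cells had 0.40 and -0.27, and Srgn -0.14 and 0.043. Over the alternatives the colon ratio of Nkg7 in Gata3+ against Gata3- cells ran from 0.781 to 1.05.

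Colon barcodes with at least 500 UMIs that the authors' table leaves out had 259 CPM of Nkg7 and 1416 CPM of Srgn, above the free RNA of that library (203 and 1099 CPM).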

How the results depend on the processing

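Of 1081 member ratios recomputed under alternatives, 124 moved by over 1.5 times, 69 of them ratios of Gzma. Counts of members at least 2-fold higher that changed by over 1.5 times were these. Between tissues, the count for the small intestine went from 1 to 2 over all cells without Klrd1+ cells, from 4 to 2 in Cd3e+ cells without Klrd1+ or Gzma-rich cells (at least 10 Gzma UMIs), and from 3 to 1 in Gata3+ cells under median-ratio scaling or without the 10 cells with the most UMIs of a gene. The count for the colon went from 1 to 2 in Ncr1+ cells with cells weighted equally or thinned, and to 0 with 2 marker UMIs, without the 10 cells or without Klrd1+ cells. It went from 0 to 1 in Klrd1+ cells after thinning and in Cd3e+ cells with 2 marker UMIs. For the small intestine, Gata3- over Gata3+ went from 0 to 3 with 2 marker UMIs, to 2 after thinning, and to 1 without doublets, Cd3e+ cells or the 10 cells. Ncr1- over Ncr1+ went from 0 to 1 without doublets, weighted equally, thinned or with 2 marker UMIs, and Cd3e- over Cd3e+ from 0 to 1 with 2 marker UMIs. Tbx21+ over Tbx21- went from 1 to 2 without doublets or thinned, and Tbx21- over Tbx21+ from 0 to 1 when thinned or without Klrd1+ cells. Trdc+ over Trdc- went from 1 to 2 with cells called from the matrices or without doublets, and to 0 without the 10 or the Gzma-rich cells, and Trdc- over Trdc+ from 0 to 1 without the 10 cells. Klrd1- over Klrd1+ among Cd3e+ cells went from 1 to 0 when thinned or without the Gzma-rich cells. In the colon, Cd3e+ over Cd3e- went from 1 to 0 without the 10 or the Gzma-rich cells and to 2 without Klrd1+ cells. Tbx21+ over Tbx21- went from 0 to 1 without doublets, Tbx21- over Tbx21+ from 0 to 1 when thinned, and Trdc+ over Trdc- from 0 to 1 when thinned. The log2 ratio of Gzma turned in 3 cases, in the small intestine Trdc split to -0.29 after thinning and to -0.0029 without the Gzma-rich cells, and to -0.077 for colon Ly6c2+ cells weighted equally. The cause was not tested, except that thinning leaves fewer cells with a marker UMI. No paired analysis was possible because there is 1 library per tissue. Prf1 was seen mostly as 1 UMI per cell, and colon Gzma in 8 cells.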

Other observations

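Of the other granzyme genes, Gzmk was seen mainly in Klrd1+ cells of the small intestine, with 61.7 CPM there and 0.274 CPM in Klrd1- cells. Over all cells it had 2.19 CPM for the small intestine and 0.134 CPM for the colon. In Cd3e+ cells Gzmk was at 26.6 and 0.474 CPM. Gzmc had 87.3 and 33.3 CPM over all cells of the 2 tissues, and in colon Klrd1+ cells it had 208 CPM, 10.4 times the level of Klrd1- cells. Gzmk, like Gzma, was thus higher in the small intestine library and in its Klrd1+ cells. Gzmc, like Gzmb, was higher in Klrd1+ than in Klrd1- cells of the colon. Over all cells the levels of Gzmc in the 2 tissues lay further apart than those of Gzmb.

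The 17 small intestine cells rich in Gzma also held Il22, the cytokine gene of ILC3 and some T cells, with 160 UMIs in 11 cells, and 240 of the other 413 Cd3e+ cells held it too. Cd160, an NK and epithelial T cell receptor gene, had a UMI in 12 of the 17 cells and in 127 of the other 413. Ccl5 had a UMI in 17 of 17 and in 74 of 413.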
